A study of Mus musculus with 3 samples.

Results

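The genes described here are 10 genes of multiciliated airway cells, namely Foxj1, Rfx2, Rfx3, Dnah5, Dnali1, Ccdc39, Rsph1, Tekt1, Ccdc113 and Mlf1, of 18193 genes that the array could name. They were taken as a given list, and every probe set annotated to 1 of them was used, which made 17 probe sets. RNA came from olfactory epithelium of Tgn1-2G transgenic mice of both sexes at postnatal days 5 to 8, a line known from other work to make GFP under control of Neurog1 regulatory DNA, which is active in olfactory neuron progenitors. Cells were sorted into a strongly fluorescent fraction (GFP+++, 1000000 cells), a weakly fluorescent one (GFP+, 1300000 cells) and an unlabelled one (GFP-, 6800000 cells), all from transgenic animals. By the submitters' account, immature neurons were concentrated in GFP+++, mature neurons slightly so in GFP+, and GFP- kept every cell type but had lost immature neurons. Each fraction was hybridised to 1 array, and the labels give the number 32 for each, read here as mice whose RNA was pooled. There is no replicate error, no test and no p-value for any value below, and all folds describe these 3 arrays.

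Motile cilia beat, and in the nose they stand on respiratory epithelium at the edge of the olfactory region. Their axoneme carries dynein arms that slide the doublet microtubules, radial spokes and a central pair that control the beat, and a ruler and a nexin link that space and tie these parts. The forkhead factor Foxj1 switches on the genes for these parts, together with RFX factors, which bind a sequence called the X-box in promoters of cilium genes and also serve cilia that do not beat. Olfactory sensory neurons bear many long cilia that hold the odorant receptors and in mammals are regarded as immotile. Neurons and airway cells therefore share the transport machinery of cilia, while the motility parts are textbook features of the airway cells.

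The sequences shown first are the places in promoters of the 10 genes where the letters of an X-box occur, since this is the element through which Rfx2 and Rfx3 act. The RefSeq promoter table (build GRCm38.p6, 250 bases before to 50 after a start) held windows for 8 of the 10 genes, without Foxj1 and Rsph1. The X-box core GTTGCC, searched on both strands, occurred in windows of 5 of these 8 genes. It occurred in 14.1% of all 27025 genes in the table, in 41 of 91 genes of the other motile cilium lists (45.1%) and in 10 of 24 genes of general cilium transport (41.7%). A match is a description of the letters and not evidence of binding. Each line below is written 5′ to 3′ along the gene, with that core, or its reverse complement GGCAAC, in capitals.
Mlf1, chr3:67373980-67374009, gene on the + strand: gtgtttacagagGTTGCCatagcagccgag
Tekt1, chr11:72361880-72361909, gene on the - strand: tgcgtccgtccgGTTGCCatagagaccgca
Tekt1, chr11:72361900-72361929, gene on the - strand: tcttctaactagGGCAACgttgcgtccgtc
Ccdc113, chr8:95534082-95534111, gene on the + strand: ttcagttgtctaGGCAACgcgcctcagggt
Rfx2, chr17:56831107-56831136, gene on the - strand: agcttggtaaccGTTGCCgggcgcaacgcc
Rfx3, chr19:28011118-28011147, gene on the - strand: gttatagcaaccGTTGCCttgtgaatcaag

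The matches of Mlf1 and Rfx2 began 105 and 116 bases upstream of the start, those of Tekt1 15 and 35 bases and that of Ccdc113 6 bases upstream, while that of Rfx3 lay downstream of the start. The forkhead core TGTTTAC, searched on both strands, was found in Mlf1 among the 8 genes, 116 bases upstream and so just before its X-box core. It was found in 4.05% of all genes and in 5 of the 91 genes of the other motile cilium lists. The palindromic X-box form GTNNCCNNGGNNAC, which can overlap the core, was found in Rfx2 among the 8 genes, 34 bases downstream of the start. It was found in 2.16% of all genes, in 13 of the 91 (14.3%) and in 5 of 24 genes of general cilium transport (20.8%).
Mlf1, chr3:67373969-67373999, gene on the + strand: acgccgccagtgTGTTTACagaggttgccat

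The signals are MAS5 intensities on a linear scale, and a value under the pooled median of 104 was treated as under the floor, where probe sets give no reliable ratio. The median signal was 88.2 to 118 over the 3 arrays, and 59% to 66.1% of genes lay above the floor. The marker lists followed the submitters' account for GFP+++ and GFP+, but the loss of immature neurons from GFP- was not seen against GFP+. All 8 immature neuron markers were highest in GFP+++, where 39.1% of all genes were. Yet 6 of the 8 were lowest in GFP+ and only 2 in GFP-, against 2775 and 4380 of all 12331 genes above the floor. Highest in GFP+ were 7 of 8 mature neuron markers, against 24.8% of all genes. Omp, the marker of mature olfactory neurons, stood at 5041, 10615 and 7748 in GFP+++, GFP+ and GFP-. Airway secretory and gland genes ran the other way: all 8 above the floor were lower in GFP+++ than in GFP- by 2-fold or more, against 12.4% of all genes. GFP- was the highest array for 7 of 8, against 36.1% of all genes. As an example, the antimicrobial lectin Reg3g had 425, 6615 and 7399 in that order, while the exception was Bpifb1, a secreted airway protein, with 65.3, 1213 and 965. In sorted bulk samples such as these, fewer cells of a type and less RNA per cell cannot be told apart.

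Of the 10 genes, 9 rose above the floor on at least 1 array and 8 on all of them. Among the regulators, Foxj1 and Rfx2 were highest in GFP+, where Rfx3 was lowest on its brightest probe set. Foxj1, the forkhead regulator, gave 367 in GFP+++ on its single probe set, with 617 in GFP+ and 390.3 in GFP-. GFP+ stood apart as the high array, and the other two lay close together. Rfx2 had 223, 310.0 and 275 on its brightest probe set and 163, 198 and 165 on another above the floor. Both put GFP+ highest, while the remaining 2 Rfx2 probe sets stayed under the floor on all arrays. The log2 fold of GFP+ against GFP- was 0.17 on the brightest and 0.26 on the other. The SD among probe sets of the same gene was 0.24 in that comparison.

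Rfx3 ran the other way, with 3937, 2815 and 3611 in the same order of arrays. On that probe set, its brightest, Rfx3 was lowest where Foxj1 and Rfx2 were highest. Its other probe set was above the floor only in GFP+++, at 146 against 99.8 and 98.8, and so also had GFP+++ as its high array.

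Among the axoneme parts, Rsph1 and Ccdc39 were close to level across the arrays. Rsph1, a protein of the radial spoke head, had 2298, 2391 and 2248 from GFP+++ to GFP-, so its highest array was 1.06-fold above its lowest. Ccdc39, which with Ccdc40 forms the ruler along the doublets, had 980.4, 925 and 926 on a probe set whose ending _s_at marks possible binding to several transcripts. Its other 2 probe sets lay under the floor on every array, so the Ccdc39 values rest on that probe set alone. Tekt1, a filament protein within the doublet wall, had 532, 598 and 436, with GFP- as its low array and GFP+ 1.37-fold above it.

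The dynein members lay close to the floor or under it. Dnali1, a light intermediate chain of inner dynein arms, had 69.2, 224 and 160.1. It is the 1 member that left the measurable range in a fraction, since GFP+++ lay under the floor, and its other probe set was under the floor on all arrays. Dnah5, the heavy chain of outer dynein arms whose loss causes primary ciliary dyskinesia, had 60.4, 46.5 and 66.1 on its single probe set. All 3 values were under the floor, so no order is read from them and Dnah5 enters no count of folds.

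The remaining members are Ccdc113, a coiled-coil protein of centriolar satellites and cilia, and Mlf1. Ccdc113 had 123, 144 and 139 and so lay just above the floor on each array. Mlf1 had 3011, 2777 and 2423, highest in GFP+++ and lowest in GFP-.

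**Figure D1:**
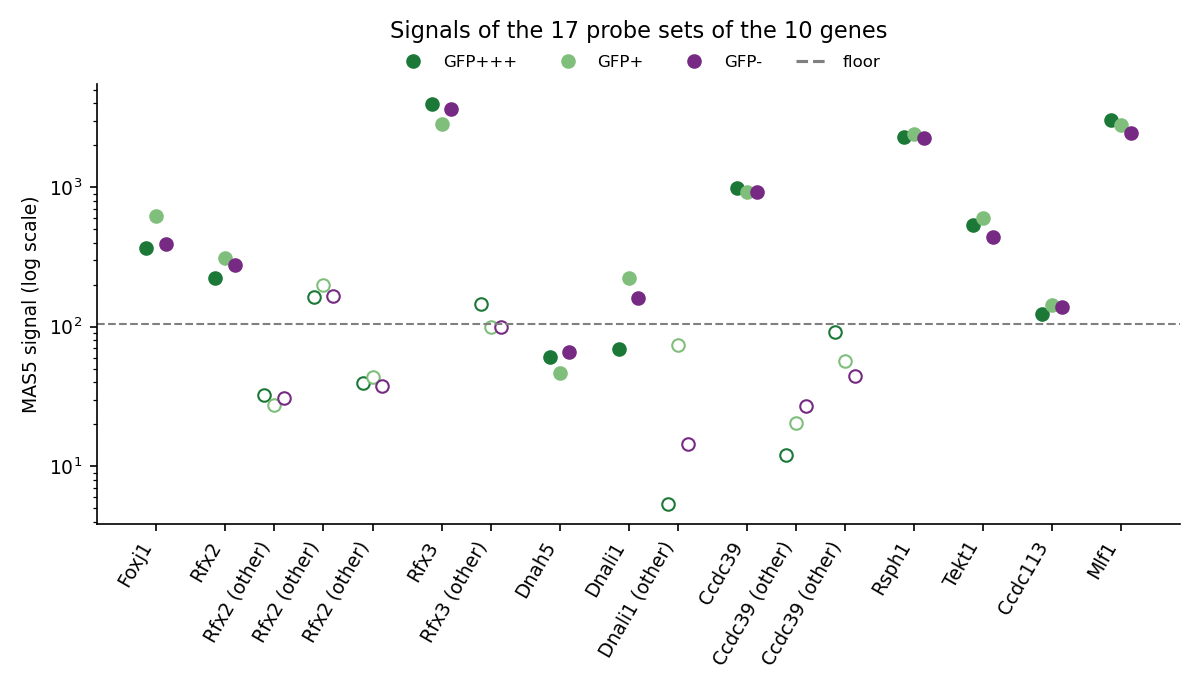
MAS5 signal (log axis) of each of the 17 probe sets on the GFP+++, GFP+ and GFP- arrays; filled points mark the brightest probe set of a gene, open points its other probe sets, and the dashed line the floor of 104. Foxj1, Rfx2 and Dnali1 peak in GFP+, Rfx3 is lowest there, Rsph1 and Ccdc39 are nearly level, and Dnah5 lies under the floor throughout.

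GFP+++ against GFP- asks how these genes stood where immature neurons were concentrated and airway secretory genes had fallen. None of the 9 measured genes was 2-fold higher and none 2-fold lower in GFP+++, against 1.92% and 12.4% of the 12235 genes compared. The median log2 fold of the 9 was 0.03, beside 0.01 for all genes, with 5 above and 4 below 0. Mlf1 was highest at 0.31, followed by Tekt1 at 0.29, Rfx3 at 0.12, Ccdc39 at 0.08 and Rsph1 at 0.03. Foxj1 was at -0.09, Ccdc113 at -0.18 and Rfx2 at -0.30. Dnali1 was at least 1.53-fold lower, a bound because its GFP+++ signal was under the floor.

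Most of these differences lay within the spread among probe sets of a gene. Probe sets of the same gene, above the floor on both arrays, scattered with a pooled SD of 0.30 on the log2 scale for this comparison, over 4633 genes. That SD holds nothing of the spread between animals or sorts, nor of error shared by a whole array. Only Mlf1, Rfx2 and Dnali1 were further from 0 than that SD, the first 2 of them barely. With each array scaled by its median, which lifts the median of all genes to 0.42, Foxj1 turned to 0.33, Ccdc113 to 0.23 and Rfx2 to 0.11. Measured against the median of all genes they stayed below it, at -0.09, -0.19 and -0.31, and under quantile normalization Foxj1 stood at 0.08, Rsph1 at -0.03 and Ccdc113 at 0.20.

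In GFP+ against GFP-, which asks what weakly fluorescent cells held beyond unlabelled ones, 7 of the 9 genes lay above 0. None passed 2-fold in either direction, against 0.607% of 12196 genes higher and 0.804% lower. Foxj1 was 1.58-fold higher in GFP+, a log2 fold of 0.66 that exceeded those of 96.6% of all genes compared. Dnali1 was at 0.49 and Tekt1 at 0.46, above 92.7% and 91.5% of genes. Rfx3 was the exception below 0 at -0.36, and Ccdc39 was at 0.00, above 50.9% of all genes. Mlf1, Rfx2, Rsph1 and Ccdc113 lay between 0.05 and 0.20.

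The median of the 9 was 0.17, beside -0.01 for all genes. The probe set SD of this comparison was 0.24 (4979 genes), and Foxj1, Dnali1, Tekt1 and Rfx3 were further from 0 than that. Mature neuron markers also rose in this comparison, to a median of 0.35 over 8 genes, and their part in the result was not tested. In GFP+++ against GFP- their median was -0.40, with 6 of 8 below 0, beside 0.03 for the 9, with 4 below 0. The rise in GFP+ was shared by general cilium transport, whose 28 genes centred on a log2 fold of 0.30. Airway secretory and gland genes had a median of -0.60 over 8 genes, from -1.85 to 0.33. Both of these comparisons use the same GFP- array, so a deviation of that array enters both.

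GFP+++ against GFP+ sets the brightly and weakly fluorescent cells against each other without the GFP- array. It shares the GFP+ array with GFP+ against GFP-, so a deviation of that array enters both. Dnali1 was at least 2.15-fold lower in GFP+++ and so was the 1 of 9 genes past 2-fold, against 9.34% of 11881 genes lower and 0.985% higher. The call rested on the floor and the probe set: with the floor at the 65th percentile of signals, or the median over both probe sets, none passed. Foxj1 was 1.68-fold lower in GFP+++ (log2 -0.75) and Rfx2 1.39-fold lower (-0.48). Rfx3 was 1.40-fold higher (0.48), above 90.5% of all genes, so that the log2 fold of Rfx2 minus that of Rfx3 was -0.96. This pair was chosen after its values were seen, and with the floor at the 65th percentile Rfx2 was at -0.17, a bound. The probe set SD was 0.30, which is for single folds and understates the error of such a difference. Ccdc113 was at -0.23, Tekt1 at -0.17, Rsph1 at -0.06, Ccdc39 at 0.08 and Mlf1 at 0.12, all within that SD.

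**Figure D2:**
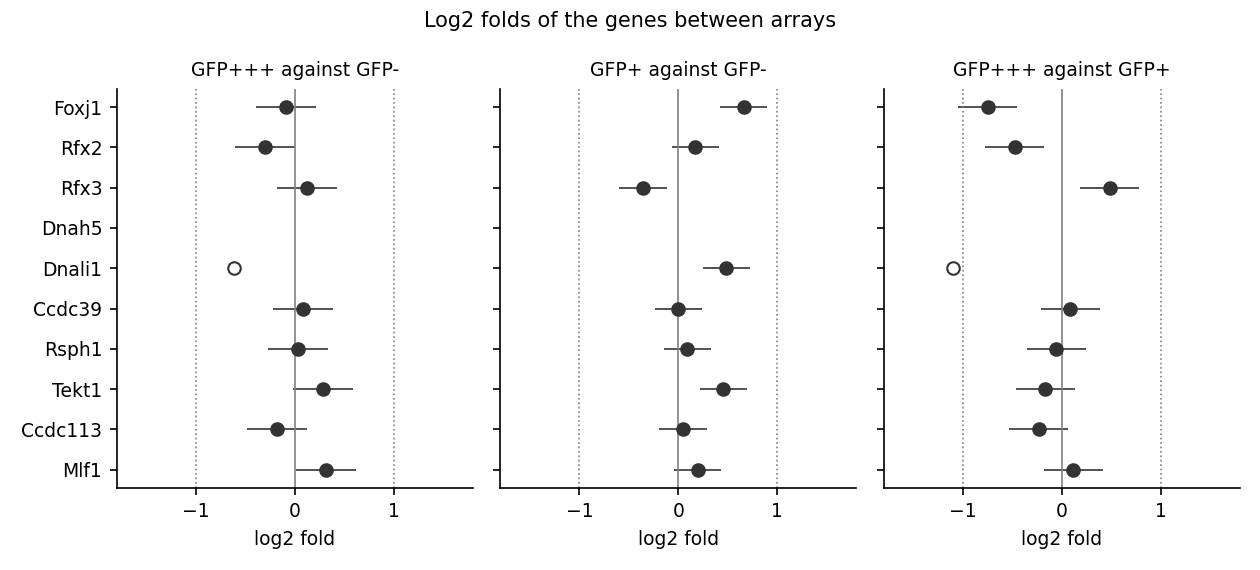
Log2 folds of the 10 genes for the 3 pairs of arrays; bars show the pooled SD of probe sets of a gene (0.30, 0.24 and 0.30), open points are lower bounds without a bar, and dotted lines mark 2-fold. Rfx3 lies opposite to Foxj1 and Rfx2 in both panels that hold GFP+, but those panels share the same GFP+ array. Dnah5 has no point because it was under the floor.

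The members were also split by role. Axoneme parts known from motile cilia are Rsph1, Dnali1, Dnah5, Tekt1 and Ccdc39, while Rfx2, Rfx3 and Ccdc113 are also known from cilia that do not beat. Foxj1 and Mlf1 were left out of the split. The 4 measured axoneme genes had a median log2 fold of 0.06 in GFP+++ against GFP-, from -0.62 to 0.29, and the 3 others -0.18, from -0.30 to 0.12. The medians were 0.27 and 0.05 in GFP+ against GFP-, and in GFP+++ against GFP+ they were -0.11 and -0.23. The ranges of both sets overlapped in each comparison. The median of the 3 turned sign in GFP+++ against GFP- with median scaling (0.23) and with quantile normalization (0.03). With the higher floor only Rfx3 kept a value (0.12), and with the median over probe sets only Rfx3 and Ccdc113 did (median 0.08). Those sign turns came with the loss of genes from the set. Their median also turned in GFP+ against GFP-, to -0.10 with the higher floor and -0.06 with the median over probe sets, and in GFP+++ against GFP+ under all of those 4 settings, to between 0.03 and 0.16. That of the axoneme genes turned to 0.16 in GFP+++ against GFP+ with median scaling. In GFP+ against GFP- it was 0.09 with either other floor and 0.46 without probe sets ending in _x_at or _s_at. The axoneme set changed there too: Dnali1 dropped out with the higher floor, Dnah5 entered with the lower one, and Ccdc39 dropped out without those probe sets.

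The rest of the motile cilium was read from 8 further lists with 123 genes, of which 106 were on the array and 81 above the floor on some array. Comparing GFP+++ with GFP-, 3 of 78 stood 2-fold or more above GFP- (Dnah9, Tppp3 and Wdr66) and 4 that far below it (Ccdc153, Lrrc23, Myb and Tmem212), and the median log2 fold was 0.05; of all genes 1.92% and 12.4% did so. Comparing GFP+ with GFP-, 67 of 81 lay above 0, with a median of 0.34 beside -0.01 for all genes. General cilium transport genes had 27 of 28 above 0. Of the 81, 3 rose by 2-fold or more (Armc4, Cfap126 and Tppp3) and 0 fell that far, against 0.607% and 0.804% of all genes. In GFP+++ against GFP+, 14 of 81 fell short of GFP+ by 2-fold or more and 0 exceeded it so far, with a median of -0.36. Of all genes 9.34% and 0.985% did so. The 14 fell to 7 with median scaling, 7 with quantile normalization and 4 with the higher floor. Over all genes the 1110 lower fell to 767, 895 and 526 with the same settings.

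Most genes of the structural lists were highest in GFP+ with the arrays as scaled here. The highest signal was in GFP+ for 6 of the 9 members and for 54 of the 81 further genes, regulators included. That was 66.7% of each, against 24.8% of all 12331 genes above the floor. Of the 6 members, Rsph1 and Ccdc113 were near level, with 1.06-fold and 1.17-fold from the lowest array to the highest. The signal of GFP- was highest for none of the members and for 10 of the 81, against 36.1% of all genes. With median scaling GFP+ was highest for 3 of 9 members (33.3%), 43 of 80 further genes (53.8%) and 16.4% of all genes. General cilium transport genes gave 18 of 28 (64.3%), which fell to 3 of 28 (10.7%) with that scaling, whereas mature neuron markers gave 7 of 8 and 6 of 8.

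**Figure D3:**
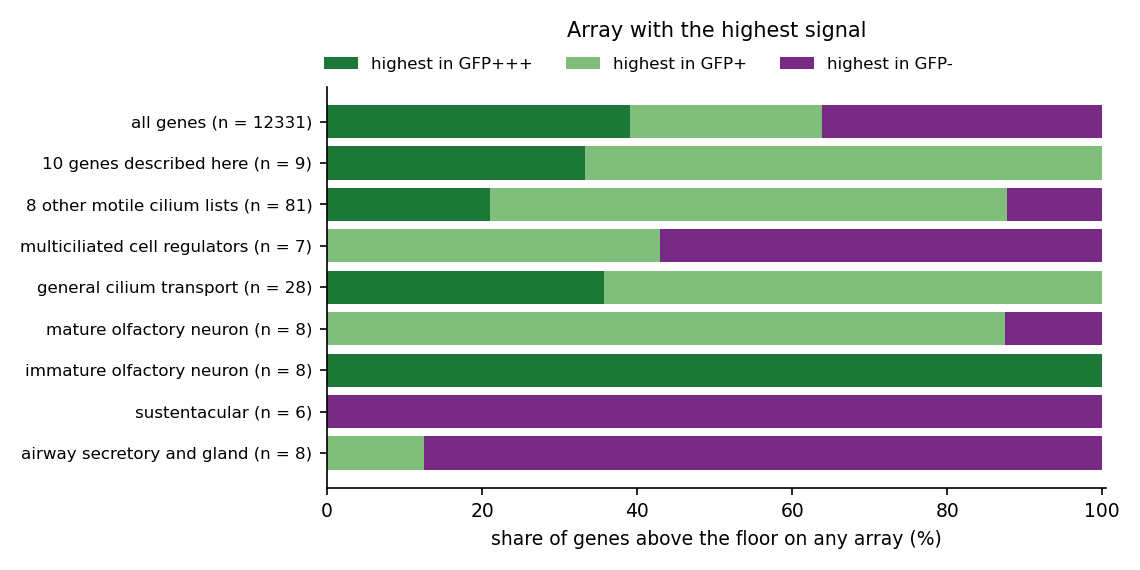
Share (%) of the genes above the floor on any array whose signal was highest in GFP+++, GFP+ or GFP-, by list, with the number of genes in brackets. With the arrays as scaled here, GFP+ holds the highest signal for 66.7% of the 9 genes and of the 81 further motile cilium genes, and for 24.8% of all genes; with median scaling these shares are 33.3%, 53.8% and 16.4%.

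Dynein arm chains went different ways. Dnah9, an outer arm heavy chain, had 531, 409 and 259 on the brighter of its 2 probe sets. There it was 2.05-fold higher in GFP+++ than in GFP-, but it did not pass 2-fold with the median over probe sets. Dnah11, another outer arm heavy chain, had 197, 419 and 394 and was 2.12-fold lower in GFP+++ than in GFP+. Dnaic2, an intermediate chain, was under the floor in GFP+++ (65.1) and had 209 and 176 in GFP+ and GFP-. Wdr78, an inner arm chain, had 177, 376 and 253. Dnal1 (1071, 1304 and 1052) and Dnah7a (523, 603 and 378) were the brightest others.

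Docking and assembly factors had a median of 0.25 in GFP+++ against GFP- over 11 genes and 0.45 in GFP+ against GFP- over 12. Armc4, which docks outer arms, had 219.9, 557 and 253 and was 2.20-fold higher in GFP+ than in GFP-. Ttc25, also of the docking complex, was 99.1, 253 and 175. The assembly factors Dnaaf2, Dnaaf5 and Lrrc6 lay within 2-fold in every comparison.

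Radial spoke genes had a median of 0.54 in GFP+ against GFP- over 11 genes, with 10 above 0, where the median of all genes was -0.01. Rsph9 had 3050.4, 3377 and 2088, Nme5 2109.5, 1839 and 1455, and Rsph4a 468, 989 and 589. Wdr66, a spoke base protein, had 3200.2, 1701 and 1583 on the brightest of its 4 probe sets. There it was 2.02-fold higher in GFP+++ than in GFP-, but it did not pass 2-fold with the median over probe sets. On its brightest probe set Wdr66 differed from Rsph4a, which was 2.11-fold lower in GFP+++ than in GFP+. The member Rsph1, with a log2 fold of 0.09 in GFP+ against GFP-, lay below the median of its fellow spoke genes.

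For the central pair all 6 measured genes lay above 0 in GFP+ against GFP-, with a median of 0.45 beside -0.01 for all genes. Cfap54 had 371, 1034 and 564, and was 2.79-fold lower in GFP+++ than in GFP+. Cfap69 had 1168, 1972 and 1263, Spef1 1881, 2384 and 1795, and Spef2 601, 918 and 738. The ruler and nexin link genes had a median of 0.49 over 9. Ccdc40, the partner of Ccdc39, had 667, 1057 and 584 and so peaked in GFP+, whereas Ccdc39 was level. Drc1 had 732, 1168 and 703, Gas8 957, 848 and 631, and Iqcd 105, 248 and 177.

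Tektins and other proteins inside the doublets had a median of 0.32 in GFP+ against GFP- over 9 genes. Enkur had 1936, 3323 and 1867, Cfap20 5245, 5116 and 4158, Nme7 832, 1019.9 and 836, and Mns1 220.1, 450.3 and 435. The median of 18 further airway multiciliated cell genes was 0.42, and Tppp3 (2.48-fold) and Cfap126 (2.15-fold) exceeded 2-fold. Tppp3 had 2446, 2195 and 886 and Cfap126 1861, 2445 and 1135. Dynlrb2 (4666, 4031 and 3193), Pifo (3300.2, 4325 and 2763) and Spa17 (3423, 2789 and 2386) were the brightest.

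A few of these genes were low in GFP+++, as markers of many cell types were. In GFP+++ against GFP- the medians were -3.31 for airway secretory and gland, -4.33 for immune, -4.30 for fibroblast and -2.19 for basal cell markers. They were -1.69 for dividing, -1.13 for sustentacular and -0.40 for mature neuron markers, but 0.66 for immature neuron markers. Any tie of the low genes to a cell type was not tested. Tmem212 was under the floor in GFP+++ (70.3) with 322 and 278 in GFP+ and GFP-, and Ccdc153 likewise with 41.8, 230.4 and 256. Lrrc23 had 173, 461 and 409.6. These 3 were lower in GFP+++ than in GFP- by at least 2.66-fold, at least 2.45-fold and 2.37-fold. Morn5 (121, 243 and 164) was 2.00-fold lower in GFP+++ than in GFP+.

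Regulators of multiciliated cells other than the members were split between arrays. Of 7 above the floor, 4 were highest in GFP-, where 36.1% of all genes were, and 3 in GFP+, and their median in GFP+++ against GFP- was -0.41 over 6. Myb, which acts early in multiciliated and in dividing cells, had 357, 936 and 1454 on a probe set whose ending _x_at marks possible cross-binding, and was 4.08-fold lower in GFP+++ than in GFP-. Dividing cell markers moved with it, all 4 of them lower in GFP+++ than in GFP- by 2-fold or more, against 12.4% of all genes. Their part in the Myb value was not tested. E2f5 (552, 589 and 606) and Foxn4 (222, 238 and 201) were near level.

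**Figure D4:**
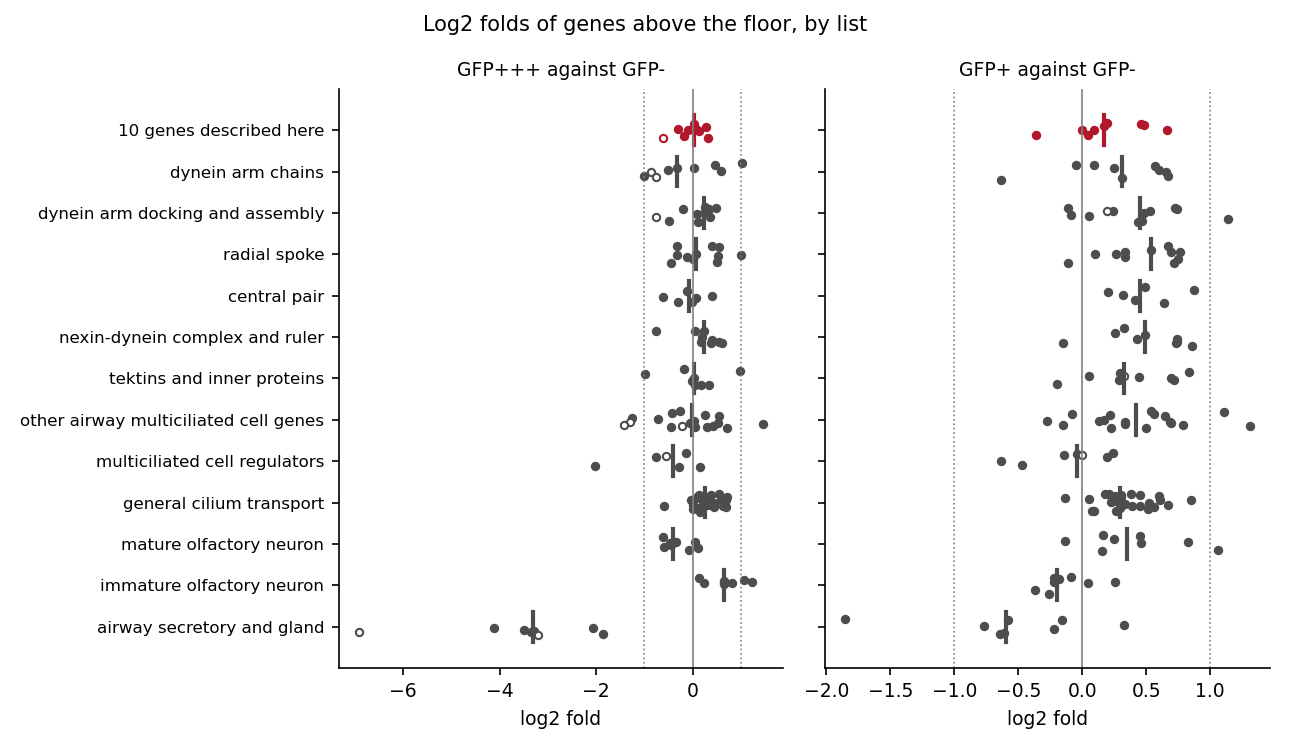
Log2 folds of single genes in GFP+++ against GFP- (left) and GFP+ against GFP- (right), by list; vertical ticks are list medians, open points lower bounds, and dotted lines 2-fold, and the axes of the panels differ. Airway secretory and gland genes lie at a median of -3.31 on the left, where the 10 genes and the structural lists scatter around 0, and on the right the structural medians lie between 0.31 and 0.54.

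Relatives of the members gave a further comparison. Of the RFX factors, Rfx4 had 125, 373 and 260, and was 2.08-fold lower in GFP+++ than in GFP-, while Rfx1 (583, 525 and 463), Rfx5 (301, 480.4 and 459) and Rfx7 (1637, 1669 and 1585) stayed within 2-fold. Of the 7 relatives, 5 were highest in GFP+, against 24.8% of all genes. Among those 5, Rfx7 and Mlf2 were nearly level, with 1.05-fold and 1.17-fold from the lowest array to the highest. Foxj2 had 595, 987 and 669.5, an order like that of Foxj1, and Foxj3 4041, 3744 and 3494. Mlf2 had 4049, 4199 and 3574.

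The genes most like Foxj1 over the 3 arrays were named by the largest difference of log2 signals after centring each gene on its own mean. They were Mfsd4a (1053, 1766 and 1105), the central pair gene Cfap69, Rbm43 (1056, 1819.8 and 1139), 2310040G24Rik (106, 175 and 111) and the centrin Cetn4 (294, 487 and 319), each within 0.03. Of 10450 other genes above the floor on all arrays, 84 (0.804%) came within 0.10 of Foxj1, and of the 71 further motile cilium genes 8 did (11.3%). None of the other members did, Rfx2 being nearest at 0.25 and Rfx3 furthest at 0.75. The median profile of Rsph1, Tekt1 and Ccdc39 was nearly level and had 1332 genes within 0.10, led by Ranbp10, Lurap1, Pcmtd2, S100pbp and Usp4. With 3 arrays such likeness is weak.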

How the data were processed

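The authors deposited 1 linear signal intensity for each probe set, computed with MAS5 per the submitters' processing notes; its version and settings were not stated, and detection calls were not used here. Total RNA was made into biotin-labelled cRNA, per the labels' protocols. Of 45101 probe sets, 34945 had 1 gene symbol, 932 several and 9160 none, and 64 were controls. Of 229 list symbols, 205 were matched, in part through aliases or RefSeq synonyms of GRCm38.p6; no gene coordinates but those of promoter windows were used.

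Each array was brought to a 2% trimmed mean of 500, which the deposited values already had. A gene was represented by its brightest probe set on average. Signals under the pooled median (104) were raised to it, and log2 folds were taken; a gene under this floor on both arrays has no fold, and one under it on 1 array has a lower bound. A gene was counted at a fold of 2. The number of arrays limits the precision, and the spread of probe sets is measurement error alone.

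The members and the lists were chosen with earlier results of these data known. Named are all members, the 3 brightest genes of each further list and those past 2-fold, relatives of members above the floor, and the 5 genes nearest in pattern. Marker examples, and Rfx2 against Rfx3, were chosen after their values were seen. Scaling, floor and probe set alternatives are described at the end; steps were tested on simulated data. Python 3.11.15, numpy 2.4.6, pandas 2.3.3 and scipy 1.17.1 were used.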

Additional observations from a re-analysis of the deposited data

How the results depend on the processing

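Each value was recomputed with arrays scaled by the median, quantile normalization, a floor at the 65th or 35th percentile, the median over probe sets, and without probe sets ending in _x_at or _s_at. Of 145 such log2 folds of the 10 genes, 132 moved by less than the probe set SD. Signs turned for 11, 7 of these with median scaling and 4 with quantile normalization. Many of the 145 could not move. Dropping probe sets left each remaining fold as it was, and a median over probe sets changes nothing for a gene with 1 probe set. Another floor changes a fold only where a signal lies under a floor. Median scaling moved 8 of 27 folds by the SD or more, and quantile normalization 1 of 27. In GFP+++ against GFP-, median scaling put the medians of the axoneme members at 0.47 and of the 3 members with wider use at 0.23, and counted 6 further motile cilium genes as 2-fold higher; it turned the split of all genes from 235 higher and 1522 lower to 1129 and 1045. The median over probe sets counted 1 further gene as higher, namely Tppp3, so that Dnah9 and Wdr66 no longer passed. With the floor at the 65th percentile 1 further gene was 2-fold lower, and of the 3 members only Rfx3 kept a value, 0.12. With that at the 35th, 9 further genes and 1 member, Dnali1 (-1.21), were lower. Of all genes 746 were lower with the former floor and 2335 with the latter. In GFP+ against GFP- the median over probe sets counted 5 further genes, and 64 of all genes, as 2-fold higher. Median scaling turned all genes from 74 higher and 98 lower to 131 and 46.

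In GFP+++ against GFP+, 0 members were 2-fold lower with the 65th percentile floor and with the median over probe sets. The median of Rfx2 and Rfx3 was 0.16 with the former, and that of Rfx3 and Ccdc113 was 0.14 with the latter. Of the further genes 7 were lower with median scaling, 7 with quantile normalization and 4 with the higher floor. With median scaling 1 was higher, as were 416 of all genes. The number of members highest in GFP+, a count added after the data were seen, was 3 (33.3%) with median scaling. The cause of these moves was not tested, beyond fewer genes lying above a higher floor. Some genes then lay under the floor and had no value: Ccdc39 without its _s_at probe set, Ccdc39 and Rfx2 with the median over probe sets, and Dnali1 and Ccdc113 with the 65th percentile floor, and, in GFP+++ against GFP- alone, Dnali1 with the median over probe sets and Rfx2 with the 65th percentile floor. No paired analysis was possible because each group has 1 array. The dimness of Dnah5, Dnali1 and Ccdc113 limits what can be read from them.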
